A study of Saccharomyces cerevisiae with 2 samples.

Results

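Genes of transfer RNA (tRNA) modification and processing were followed in a genetic interaction screen of the budding yeast *Saccharomyces cerevisiae*. They were chosen by gene name, as the 57 listed members of the Elongator, thiolation, methyltransferase, pseudouridine synthase, splicing and related groups, out of 5094 genes with a probe on the array. Of the 57, 54 had a probe, 36 had a value on both arrays, 9 had one on the first array alone and 9 had none. *IKI1*, *IKI3* and *KTI11* had no probe, *KTI13* was found under its current symbol *ATS1* and *PUS3* under *DEG1*.

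The screen is of the GIM type (genetic interaction mapping), in which a query deletion is crossed into a pool of barcoded mutants and the barcodes of the double mutants are counted by microarray. The query pool was a mix of haploid BY4742/BY4741 derivatives carrying the query deletion, and the comparison was a reference GIM pool of the same background, which on each array was hybridised in the other dye; per the labels, the crossed pool was made of DAmP strains, whose alleles lower a gene's mRNA, and haploid double mutants grew for 18 generations under double antibiotic selection. The query gene is *PIH1* in the titles and *RSA1* in the descriptions; both are factors of box C/D small nucleolar ribonucleoprotein assembly. The 2 arrays are called independent experiments and were taken as 2 replicates of a single group, although no label names separate cultures, so the spread between them may be partly technical. A probe names a gene and not the allele behind the barcode, the labels give no allele per gene, and each pool was measured as a whole.

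Each value is a log ratio of the query pool to the reference pool, read as log2, centred on the median of its array and averaged over the probes of a gene. A negative value likely means that double mutants were scarcer in the query pool. The sources state no direction, and the basis is the 34 genes within 50 kb of *PIH1*, for which few recombinants form, with a median of -1.16 on array 1 and -0.83 on array 2. The 42 genes within 50 kb of *RSA1* had medians of 0.03 and -0.003. *PIH1* itself stood at 1.0 on array 1 and 1.02 on array 2, against its neighbours. *RSA1* had probes but no value on either array. Values ran wider on array 2: the robust SD of all probes, taken from the median absolute deviation (MAD), was 0.63 there and 0.35 on array 1.

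Transfer RNAs carry many modified nucleosides. Those of the anticodon loop tune decoding: Elongator builds the side chain of the wobble uridine, the Urm1 pathway adds sulfur to the same base, and other enzymes methylate, isomerise, deaminate or prenylate bases in the loop. Modifications of the tRNA body, among them acetylated cytidine, mostly stabilise its fold. Precursors are also spliced, trimmed, given their CCA end and exported before use in translation.

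The probed genes of wobble uridine modification by Elongator and the Urm1 pathway all lacked a value on array 2. Of the 11 Elongator and thiolation genes with a probe, 0 had a value on both arrays, 6 were valued on array 1 alone and 5 not at all. Over all 5094 genes with a probe, 82.4% had a value on both arrays, 3.42% on array 1 only and 13.7% on neither. The other 43 listed genes lay near that background, with 36 valued on both arrays, 3 on array 1 only and 4 on neither. Why a probe has no value is not given in the sources used here, and the brightness of the spots was not analysed. These counts were noticed after the values were seen and carry no test.

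**Figure D1:**
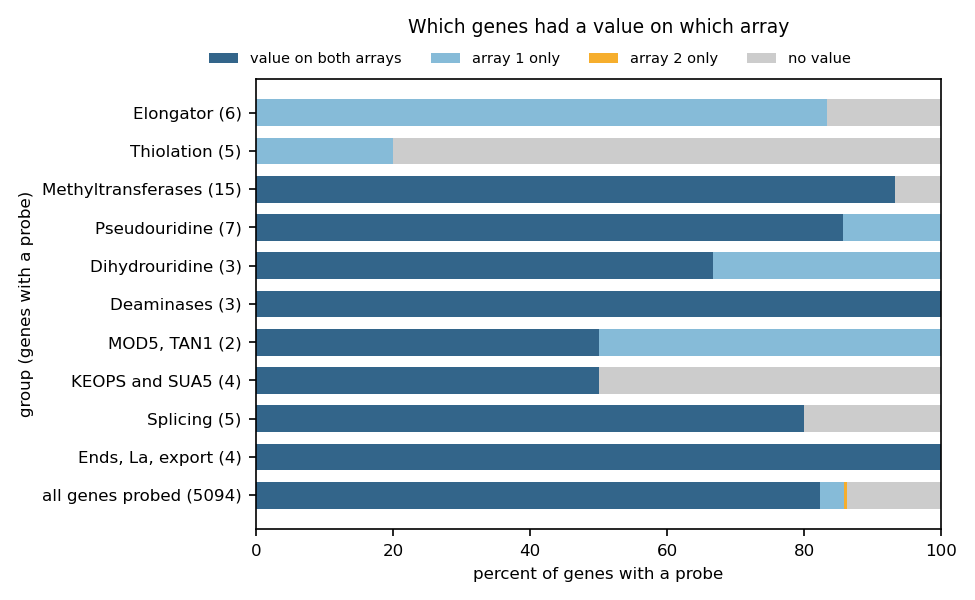
Share of genes with a probe (x axis, percent) that had a value on both arrays, on 1 array or on neither, for each group of tRNA genes and, in the lowest bar, for all 5094 genes probed. The number of genes with a probe is in brackets; the Elongator and thiolation bars hold no gene with a value on both arrays, against 82.4% of all genes.

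The Elongator values of array 1 were low. *ELP4* and *ELP6*, which encode subunits of Elongator's accessory ring, stood at -2.79 and -1.97 on that array. *KTI12*, for an ATPase that binds Elongator, stood at -2.07, and *KTI13*, for a partner of the electron carrier Kti11, at -2.09. *ELP2*, for a scaffold subunit, was nearest to 0 at -0.59, and *ELP3*, for the catalytic subunit, had no value. On a linear scale these ratios were 6.94-fold lower for *ELP4*, 3.92-fold for *ELP6*, 4.21-fold for *KTI12*, 4.26-fold for *KTI13* and 1.5-fold for *ELP2*. The median of the 5 genes was -2.07, whereas the 4217 genes valued on array 1 outside the regions within 100 kb of *PIH1* and *RSA1* had a median of 0.01.

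In the thiolation pathway the sulfur carrier gene *URM1* stood at -3.87 on array 1, 14.6-fold lower in the query pool than in the reference pool. This was the 6th lowest value among the 4370 genes valued on array 1. The genes of its activating enzyme, *UBA4*, of the thiolase subunits, *NCS2* and *NCS6*, and of the sulfurtransferase *TUM1* had probes and no value on either array. *MOD5*, which encodes the enzyme that adds an isopentenyl group beside the anticodon, likewise had a value on array 1 only, at -1.84 (3.58-fold lower).

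On array 1 alone, 5 of the 6 valued Elongator and thiolation genes were at or below -1, as were *MOD5* and *PUS7* among the 38 other listed genes valued outside those regions. The background for this count is 3.63% of 4217 genes. Among the 174 genes valued on array 1 only, the share at or below -1 was higher, 20.7%. By rank from the lowest ratio among 4370 genes, *ELP4* was 27th, *KTI13* 42nd, *KTI12* 44th, *ELP6* 49th and *MOD5* 58th, and *ELP2* was 348th. Values at the low end of array 1 were often without a counterpart: of 153 genes at or below -1 there, 35 (22.9%) had no value on array 2, against 134 of the 4064 genes above -1 (3.30%). The listed genes held 7 of the 153 and 6 of the 35.

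These low values rest on a single array, so they have no replicate check and no test. Of the 9 listed genes valued on array 1 only, 8 rest on a single probe. *KTI13* had both probes valued, at -1.97 and -2.21. For scale, over the 2713 genes with exactly 2 probes valued on array 1, the probes of a gene differed by a median of 0.15, and by less than 0.65 for 95% of genes. The genes valued on array 1 only did not all share the direction. The 174 such genes, the 9 listed ones among them, had a median of 0.03, with 36 (20.7%) at or below -1 and 29 at or above 1. *PUS3*, whose product isomerises uridines of the anticodon stem and loop, was among those at the high end, with 2.51 on array 1 from 1 probe.

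**Figure D2:**
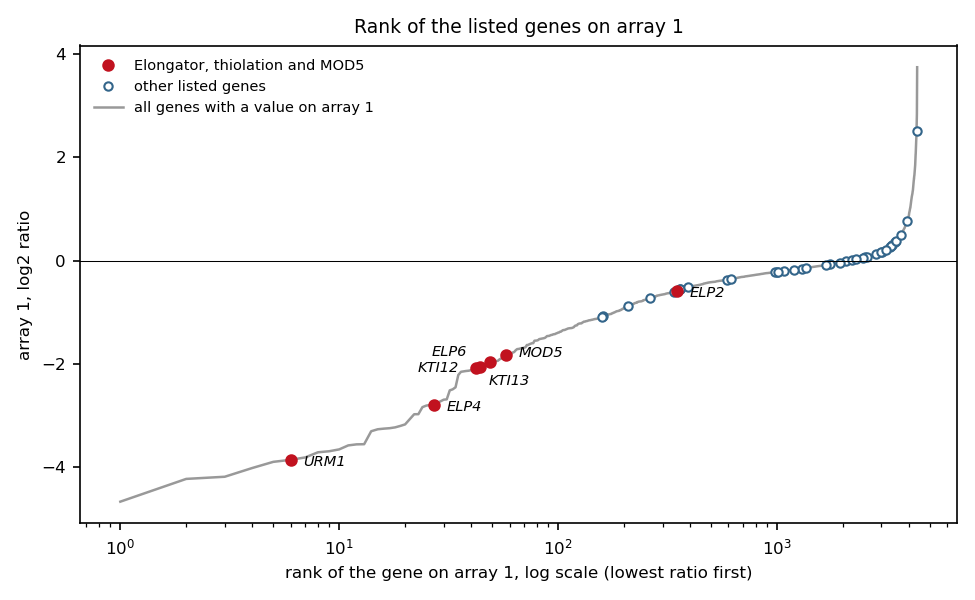
Log2 ratio on array 1 (y axis) against the rank of the gene on that array (x axis, log scale, lowest ratio first). The grey line is all 4370 genes with a value, red points are the Elongator and thiolation genes and *MOD5*, and open circles the other listed genes; 6 of the 7 red points lie at -1.84 or below and *ELP2* at -0.59.

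The remaining groups could be compared on both arrays. Of the 36 listed genes valued there, 35 entered the test; *PUS1* lies 28 kb from *RSA1* and was kept out with the other genes within 100 kb of either query gene. Each gene's ratio was tested against 0 with limma over 4048 genes, with Benjamini-Hochberg adjustment. None of the 35 passed an adjusted p of 0.05 (smallest adjusted p = 0.251), and neither did any of the 4048 genes (0% called). At an unadjusted p under 0.05 there were 5 of the 35, 3 negative and 2 positive, against 16.7% of all genes fitted. For a single gene, the smallest two-sided p that exact sign flips of 2 arrays allow is 0.5. After the arrays were brought to the same MAD, limma called 3 of the 35 (*PUS7*, *TRM7* and *GCD10*) and 11.3% of all genes, and after quantile normalization 2 of the 35 (*TRM7* and *GCD10*) and 10.7% of all genes.

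The 35 genes had a median of -0.01, as did all 4048 genes. On both arrays 13 of them were negative and 12 positive, where 33.9% of all genes were negative and 34.7% positive on both. Their mean lay within 0.5 of 0 for 26 of 35, against 70.1% of all genes. At or below -1 on both arrays was 1 of the 35, *PUS7* (2.03% of all genes), and at or above 1 on both were 0 of the 35 (6.4% of all genes). The larger value in size was on array 2 for 28 of the 35, against 73% of all genes.

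**Figure D3:**
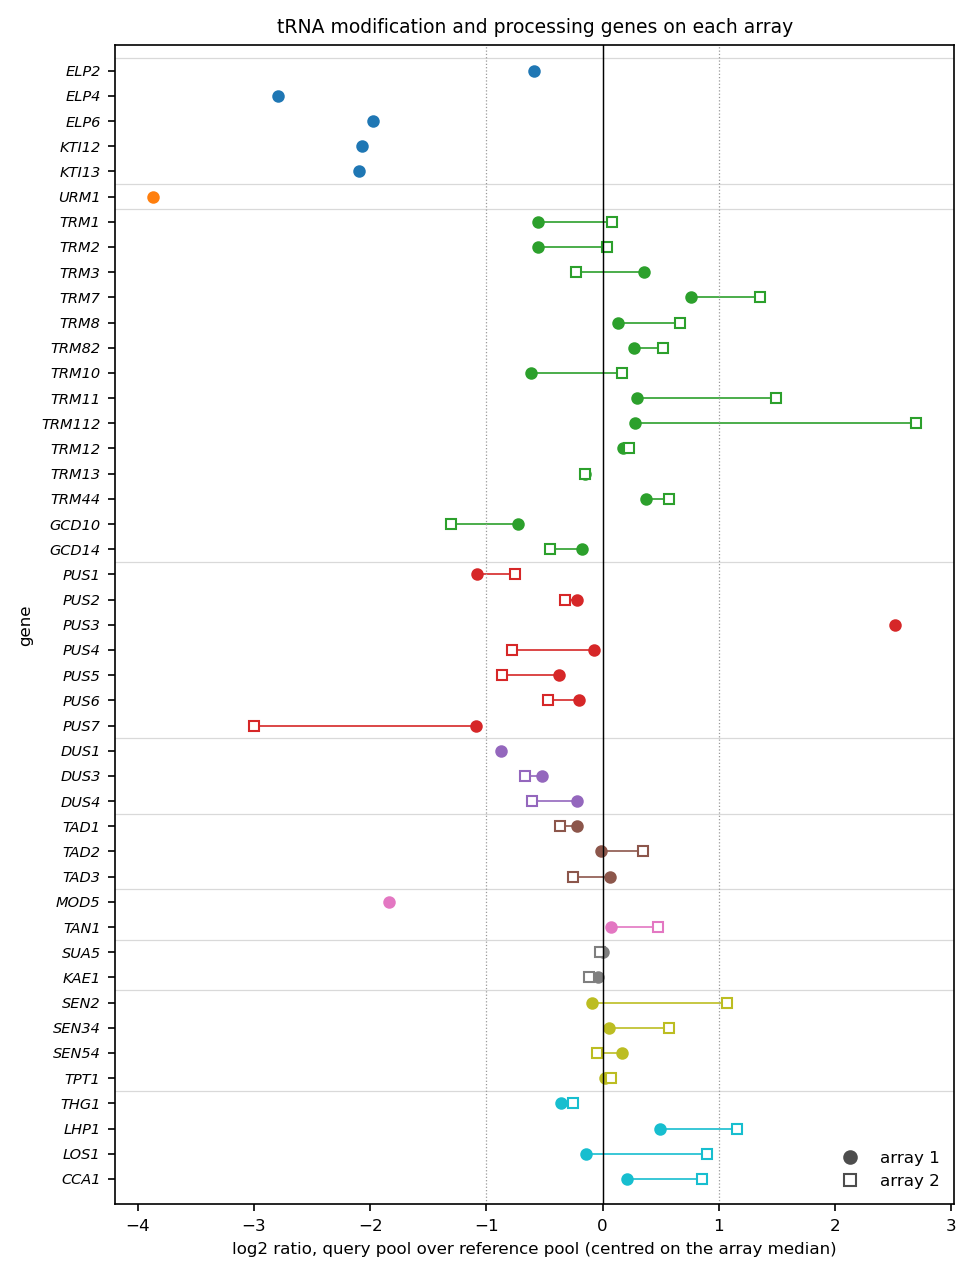
Log2 ratio, query pool to reference pool (x axis), for each listed gene with a value (y axis), with array 1 as filled circles and array 2 as open squares joined by a line; colours mark the groups in the order Elongator, thiolation, methyltransferases, pseudouridine synthases, dihydrouridine synthases, deaminases, *MOD5* and *TAN1*, threonylcarbamoyl-adenosine, splicing, and ends with La and export. The pseudouridine synthase genes with both values lie left of 0 on both arrays, while the methyltransferase genes spread to both sides.

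The listed pseudouridine synthase genes with a value on both arrays leaned to one side. *PUS7* encodes a synthase that acts on tRNAs, the U2 small nuclear RNA and mRNAs. It stood at -1.09 on array 1 and -3.0 on array 2, the lowest mean of the 35 genes at -2.04 ± 1.35 (SD, n = 2), or 4.13-fold lower in the query pool. Its probes read -1.30 and -0.88 on array 1 and -2.74 and -3.26 on array 2. Probes of a gene read the same pools on the same arrays, so they are not replicates, here and below. By limma the adjusted p was 0.271. With the arrays at the same MAD its mean was -1.85 (adjusted p = 0.0236, limma), and after quantile normalization -2.13 (adjusted p = 0.0769, limma).

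*PUS1*, for a nuclear synthase of many tRNA positions, stood at -1.08 on array 1 and -0.76 on array 2 (mean -0.92 ± 0.23, SD, n = 2). Its probes gave -1.10 and -1.07 on array 1 but -0.28 and -1.23 on array 2. With the genes next to *RSA1* kept in the fit, limma gave it an adjusted p = 0.245. *PUS5*, for the synthase of mitochondrial ribosomal RNA, stood at -0.37 and -0.87 on arrays 1 and 2. *PUS4*, for the synthase of the T loop, stood at -0.07 and -0.78. *PUS6* had -0.20 and -0.47, and *PUS2*, for a mitochondrial tRNA synthase, -0.22 and -0.33. The 5 fitted genes of the group thus were all negative on both arrays, with a median of -0.43 (-0.22 on array 1 and -0.78 on array 2), against 33.9% of all genes fitted that were negative on both. *PUS3*, positive on array 1, was the exception among the 7. Apart from *PUS7*, the means of the fitted genes lay between -0.62 and -0.27. The pseudouridine synthase genes of the second list, described below, did not share the lean. Of these, *PUS9* stood at 0.11 on array 1 and -0.31 on array 2, and *RIB2* at 0.007 and 0.19.

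The dihydrouridine synthases reduce uridines of the tRNA body. *DUS3* stood at -0.52 on array 1 and -0.66 on array 2 and *DUS4* at -0.22 and -0.60, negative on both arrays (limma adjusted p = 0.290 and 0.441). *DUS1* had a value on array 1 only, -0.87.

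The 14 methyltransferase and partner genes went both ways, with a median of 0.13, 3 genes negative on both arrays, 7 positive on both and 4 of opposite sign. *TRM7*, for the ribose methyltransferase of the anticodon loop, stood at 0.76 on array 1 and 1.35 on array 2, a mean of 1.06 ± 0.42 (SD, n = 2; 2.08-fold higher; limma adjusted p = 0.251). Its 7 valued readings over 4 probes, from the same 2 arrays, ran from 0.65 to 1.78. It passed with the arrays at the same MAD (adjusted p = 0.0364, limma) and after quantile normalization (adjusted p = 0.0388).

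*GCD10* and *GCD14* encode the subunits of the methyltransferase that makes 1-methyladenosine in the tRNA body, and both were negative on both arrays. *GCD10* stood at -0.73 on array 1 and -1.30 on array 2 (mean -1.02 ± 0.40, SD, n = 2; 2.02-fold lower; limma adjusted p = 0.251), and its probes read -0.71 and -0.76 on array 1 and -1.32 and -1.28 on array 2. It too passed in both scaled fits, with adjusted p = 0.0396 and 0.0481 (limma). *GCD14* was closer to 0, at -0.18 and -0.45, from 1 probe per array.

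*TRM8* and *TRM82*, the subunits of the 7-methylguanosine enzyme, were positive on both arrays. *TRM8* stood at 0.13 on array 1 and 0.67 on array 2 and *TRM82* at 0.27 and 0.52. Their means were 0.40 ± 0.38 and 0.39 ± 0.18 (SD, n = 2), but over probes valued on both arrays 0.40 and 0.29. *TRM112*, which activates several methyltransferases, had the highest mean of the 35 genes, 1.49 ± 1.71 (SD, n = 2), but this rests on array 2, with 0.28 on array 1 and 2.70 on array 2 from 1 probe. Its partner *TRM11* had the same order, 0.29 and 1.5 (mean 0.89 ± 0.85). *TRM9*, the partner of Trm112 that completes the Elongator side chain, had a single probe and no value. None of these passed by limma (adjusted p from 0.386 to 0.503).

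The other methyltransferase genes lay within 0.5 of 0 in mean. *TRM1*, *TRM2* and *TRM10* had -0.56, -0.56 and -0.61 on array 1 but 0.08, 0.04 and 0.17 on array 2. The *TRM2* value on array 2 averages probes at 0.59 and -0.51. *TRM3* had the opposite signs, 0.35 on array 1 and -0.23 on array 2. *TRM13*, for a ribose methyltransferase of the acceptor stem, stood at -0.15 on both arrays, *TRM12*, of wybutosine synthesis, at 0.17 and 0.23, and *TRM44*, for a ribose methyltransferase of serine tRNA, at 0.38 and 0.57.

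**Figure D4:**
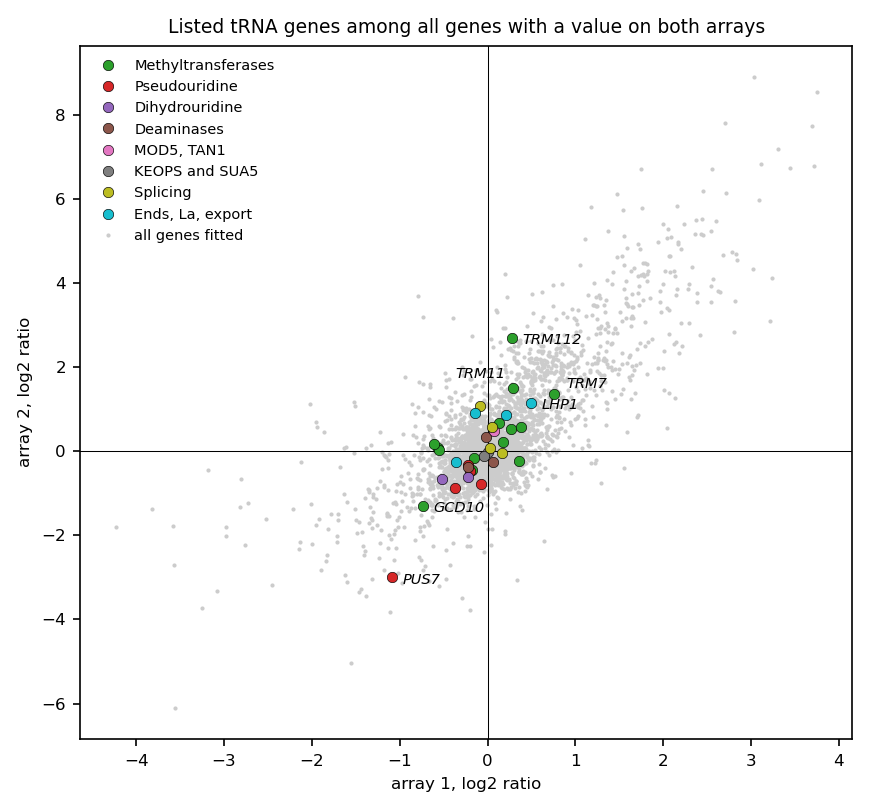
Log2 ratio on array 1 (x axis) against array 2 (y axis) for the 35 listed genes that entered the test, coloured by group, over all 4048 genes fitted in grey. *PUS7* and *GCD10* lie at the lower left, *TRM7* and *LHP1* at the upper right, and *TRM112* is high on array 2 alone; most listed genes sit in the dense centre.

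Genes of adenosine deamination, cytidine acetylation and threonylcarbamoylation lay within 0.5 of 0 on each array. *TAD2* and *TAD3*, the subunits of the wobble adenosine deaminase, had -0.02 and 0.06 on array 1 and 0.35 and -0.25 on array 2. *TAD1*, for the deaminase of alanine tRNA, stood at -0.22 and -0.37. *TAN1*, for the adaptor that directs cytidine acetylation in the D arm, stood at 0.07 and 0.47. *SUA5*, which starts threonylcarbamoyl-adenosine synthesis, had 0.01 on array 1 and -0.02 on array 2, and *KAE1*, a subunit gene of the KEOPS complex that completes it, -0.04 and -0.12. The KEOPS genes *BUD32* and *CGI121* had probes and no value.

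The splicing genes with a value lay within 0.5 of 0 on array 1 and in mean, but not all of them did on array 2. For the catalytic endonuclease subunits, *SEN2* stood at -0.09 on array 1 and 1.07 on array 2, and *SEN34* at 0.05 and 0.57. *SEN2* had a probe at 1.82 on array 2 with no value on array 1, and its other probe read -0.09 and 0.31. The *SEN34* probes lay far apart on array 2, at -0.25 and 1.39. *SEN54*, of the structural subunits, had 0.17 and -0.04, and *SEN15* had no value. *TPT1*, for the phosphotransferase that finishes the splice junction, stood at 0.02 and 0.07. The median of the 4 genes was 0.19, from 0.04 on array 1 alone to 0.32 on array 2 alone, and by limma the smallest adjusted p was 0.586.

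Of the genes of tRNA ends and export, *LHP1*, which encodes the La protein that binds the 3′ end of precursors, stood at 0.50 on array 1 and 1.15 on array 2 (mean 0.82 ± 0.46, SD, n = 2; 1.77-fold higher; limma adjusted p = 0.290). Its 8 readings over 4 probes, from the same 2 arrays, were all positive, from 0.37 to 1.57. *CCA1*, for the enzyme that adds the CCA end, stood at 0.21 and 0.85, and the exportin gene *LOS1* at -0.14 and 0.90. *THG1*, which encodes the enzyme that adds a guanosine to histidine tRNA, stood at -0.36 and -0.25.

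Of the listed genes, 11 are essential (*GCD10*, *GCD14*, *TAD2*, *TAD3*, the 4 *SEN* genes, *TPT1*, *THG1* and *CCA1*), so that only a partial loss can be present in haploid cells. Values on both arrays were found for 10 of them, with means from -1.02 for *GCD10* to 0.53 for *CCA1* and a median of 0.05. This grouping was made after the values were seen.

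The rest of the pathway was followed in a second list of 54 genes that act beside the members, of which 50 had a probe, 38 a value on both arrays and 34 entered the test. By limma 0 of the 34 passed in either direction, with 5 at an unadjusted p under 0.05 (2 negative, 3 positive; 16.7% of all genes). With the arrays at the same MAD limma called 3 of the 34, *DPH1*, *POP7* and *SLM3* (11.3% of all genes), and it called these 3 after quantile normalization as well (10.7% of all genes). At or below -1 on both arrays was 1 of the 34 (2.03% of all genes) and at or above 1 on both were 3 (6.4% of all genes). The median of the 34 was -0.01.

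The low gene was *DPH1*, for a subunit of the enzyme that starts diphthamide synthesis on elongation factor eEF2, a pathway that shares Kti11 with Elongator. It stood at -1.84 on array 1 and -2.61 on array 2 (mean -2.22 ± 0.55, SD, n = 2; limma adjusted p = 0.227), from 1 probe per array, and passed in both scaled fits (adjusted p = 0.0136 at the same MAD and 0.0161 after quantile normalization). *DPH2*, for the other subunit, had -0.27 and -0.98, and *DPH5*, for the methyltransferase of the pathway, -0.63 and -0.55. The phosphatase gene *SIT4* and the kinase gene *HRR25*, whose products set Elongator's phosphorylation, had no value. *SAP185* and *SAP190*, for Sit4 partners linked to Elongator function, were positive, at 0.62 and 2.78 and at 0.13 and 0.93. They did not share the low values of the Elongator genes on array 1. *SAP155*, for another Sit4 partner and not in this list, did, at -4.68 with no value on array 2.

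The high genes were *POP7* and *POP8*, for subunits shared by RNase P and RNase MRP, and *SLM3*, for the enzyme that thiolates the wobble uridine of mitochondrial tRNAs. *POP7* stood at 2.17 on array 1 and 4.93 on array 2 (mean 3.55 ± 1.95, SD, n = 2; limma adjusted p = 0.244, 0.0103 at the same MAD and 0.0102 after quantile normalization). *POP8* stood at 1.06 and 4.43 (2.75 ± 2.39) and missed the threshold in all 3 limma fits (adjusted p = 0.321, 0.0567 and 0.0529). *SLM3* stood at 1.26 and 2.92 (2.09 ± 1.18), with adjusted p = 0.252, 0.0150 and 0.0158 in the same order. Of the other RNase P genes, *POP1* stood at 0.11 on both arrays, *POP3* at -0.07 and 0.11, *POP4* at 0.01 and 0.11 and *POP6*, the partner of *POP7*, at 0.03 and 0.26. *RPP1*, which lies within 100 kb of *PIH1* and was not tested, had -0.14 on array 1 and 0.89 on array 2, while *POP5* (0.71) and *RPR2* (-0.18) had a value on array 1 only. *MSS1* and *MTO1*, of the mitochondrial wobble enzyme that acts on the same base as Slm3, had 0.03 and 0.22, and -0.09 and -0.14. *TRZ1*, for the 3′ endonuclease, and *TRL1*, for the tRNA ligase, lay within 0.14 of 0 on each array.

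**Figure D5:**
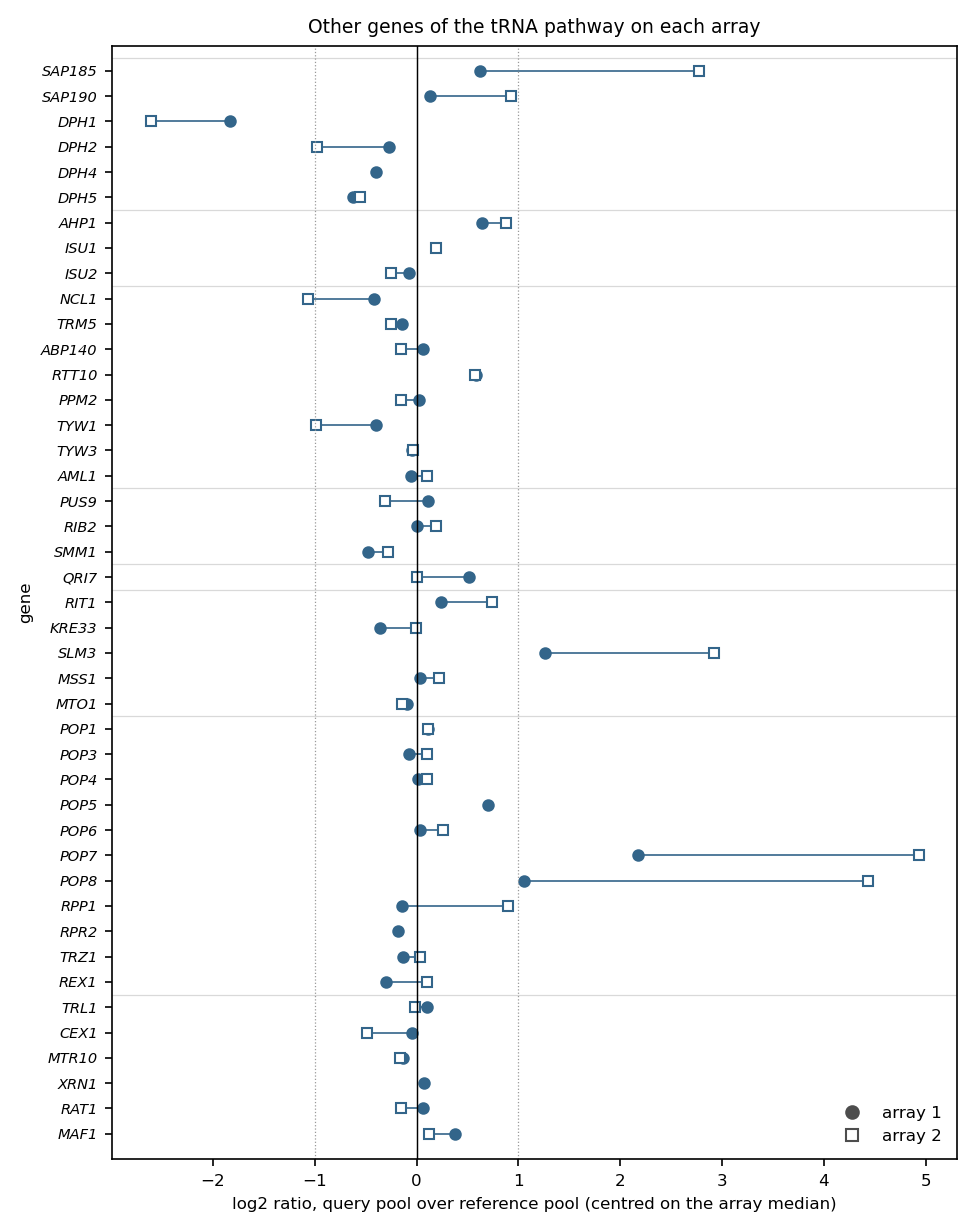
Log2 ratio, query pool to reference pool (x axis), for the other genes of the tRNA pathway (y axis), with array 1 as filled circles and array 2 as open squares. *POP7*, *POP8* and *SLM3* lie above 1 on both arrays and *DPH1* below -1 on both; most others lie within 1 of 0.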

How the data were processed

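Genomic DNA barcodes of the query pool (Cy3) and the reference pool (Cy5) were hybridised together to 2-colour Agilent arrays, per the labels' protocols. With the dyes assigned the same way on both arrays, a probe's dye effect cannot be told apart from a query effect. The deposited values are 1 log ratio per probe and array, read as log2 because they run from -6.36 to 9.40. The sources used here do not give base, direction, normalization or filters, and column medians were -0.06 and -0.27. Of 15744 probes, 13084 had 1 gene symbol, 2660 none and 0 several; 10998 were valued on array 1 and 10382 on array 2. Symbols were updated through a gene table of assembly R64. Arrays were centred on their median and probes averaged per gene; the 148 valued genes within 100 kb of *PIH1* or *RSA1* were left out of the fit. The test was limma 3.58.1 (R 4.3.3, lmFit, eBayes, intercept against 0, Benjamini-Hochberg). Simulated data with the spread of the centred values were used to check only that known mean shifts were recovered. The reference pool's own spread does not enter the test. The number of arrays limits precision. Alternatives covered centring, scale, probe summary, genes fitted and single arrays. Python 3.11.15 with numpy 2.4.6, pandas 2.3.3 and matplotlib 3.10.9 was used otherwise. All listed members are named. Members with a mean of at least 1 in size, each group's extremes and all Elongator, thiolation and endonuclease genes have both values; other pathway genes were to be named where beyond 1 on both arrays. Those named near 0 were chosen after their values were seen. The members and lists were chosen with earlier results of these data known.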

Additional observations from a re-analysis of the deposited data

How the results depend on the processing

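Scaling between the arrays decided whether any gene passed. limma called 0 of 4048 genes as centred (678 at an unadjusted p under 0.05), 456 with both arrays at the same median absolute deviation (MAD) and 434 after quantile normalization, and 0, 3 and 2 of the 35 listed genes. The 3 were *PUS7*, *TRM7* and *GCD10*, and the 2 were *TRM7* and *GCD10*. Of the 34 other pathway genes 0, 3 and 3 were called, the 3 being *DPH1*, *POP7* and *SLM3* in both scaled fits; the cause was not tested. All other fits called 0 genes. Listed genes at or above 1 on both arrays numbered 0, and 1 with the arrays at the same MAD. The median of the listed genes, -0.01, was -0.17 without centring and -0.088 over the 26 genes with at least 2 probes valued on each array. That of the methyltransferase group, 0.13, was -0.034 without centring, 0.18 and 0.20 after either scaling, -0.046 with at least 2 probes and 0.17 with 1 probe per gene; array 1 and array 2 alone gave 0.15 and 0.20. The splicing median, 0.19, was 0.020 without centring, 0.086 over probes valued on both arrays, 0.053 with 1 probe per gene and 0.31 for the 1 gene with at least 2 probes on each array. On single arrays the medians ran from 0.03 to 0.87 for ends, La and export and from -0.78 to -0.22 for the pseudouridine synthases. *SUA5* and *KAE1* together had a median of -0.04, and -0.21 without centring. Centring moved the mean of all genes by 0.17. Genes near 0 changed sign: without centring *TRM3* was at -0.10, *SEN54* at -0.10 and *TPT1* at -0.12, and with 1 probe per gene *TRM2* was at 0.14, *TRM3* at -0.013, *TAN1*, the lone gene of its group with both values, at -0.034 and *SEN34* at -0.13. No paired analysis was possible because the series holds 1 group. A single array leaves no residual degrees of freedom, so calls were not counted by array. Signal over background was not analysed, so what dim spots limit is not known.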

Other observations

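Genes valued on array 1 only held further low values beside those of *URM1* and the Elongator genes. These genes were chosen after their values were seen, rest on a single array and have no test. The lowest of the 174 was *SAP155*, for a partner of the Sit4 phosphatase like *SAP185* and *SAP190*, at -4.68, and it was followed by the deubiquitinase gene *UBP15* at -4.03 and by *URM1* at -3.87. *SIS2*, which encodes an inhibitory subunit of the phosphatase Ppz1, stood at -3.66 and *PPZ1* itself at -1.97. *UBR2* and *MUB1*, for a ubiquitin ligase and its partner in turnover of the proteasome gene activator Rpn4, stood at -3.24 and -3.31. The others among the 10 lowest were *RIC1* (-3.72), *GPM2* (-3.70), *PAB1* (-3.27) and *VPS63* (-3.21). By rank among the 174, *ELP4* was 11th, *ATS1* (*KTI13*) 14th, *KTI12* 15th and *ELP6* 17th.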
